A study of Mus musculus with 34 samples.

Results

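The 38 genes described here encode complement and coagulation proteins that the liver makes for the blood. They were chosen by name and function, with no measured value in the rule: 18 belong to complement (Hc encodes component C5) and 20 to coagulation and fibrinolysis. All 38 had a row among the 37583 genes of the mRNA table, and all 38 passed the filter on low values, which 16813 genes passed. A list of 51 other genes of the same pathways was set beside them.

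Complement is a cascade of plasma proteases. Antibody complexes (the classical route) or microbial sugars (the lectin route) activate proteases that cleave C4 and C2. The fragments form an enzyme that splits C3, factor B amplifies that step, and C5 to C9 assemble into a pore in the target membrane. Coagulation is a parallel cascade in which vitamin K dependent proteases and their cofactors generate thrombin, thrombin turns fibrinogen into fibrin, and plasmin dissolves it. Hepatocytes are the main source of most of these proteins, while C1q and properdin come largely from macrophages and other white cells.

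The KO livers came from mice labelled Setd8lox/lox-Alb-Cre, in which exon 7 of Setd8 is floxed and the Alb-Cre transgene drives recombination in hepatocytes. Recombination in other liver cells was not measured here. The WT livers came from mice labelled Wild type, with no floxed allele or Cre named. Both groups shared the strain label F1 mice (C57Bl6/CBA), the age of 45 days and the tissue. Setd8, also called Set8, PR-Set7 or Kmt5a, encodes the enzyme that places a single methyl group on lysine 20 of histone H4. Messenger RNA was sequenced in 3 KO and 3 WT libraries. Newly made RNA was sequenced by EU and by Br, with 1 KO and 1 WT library in each. EU is a uridine analogue given to the animal at 25 mg per kg 30 min before death, and Br labels the RNA that nuclei taken from the liver extend for 3 min with bromouridine triphosphate. The labels number the mRNA replicates but do not call them separate animals, so p-values measure only the spread between these libraries, which may be technical.

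The scaled mRNA values summed to between 18069344 and 20102731 in KO libraries and between 20066093 and 25820906 in WT libraries. WT replicate 3 lay far from the other libraries on component 1 of a principal component analysis (43.91% of the variance), with 20077 genes above 0. The other WT libraries and the KO libraries had 24497 to 26247. The targeted gene did not fall: Setd8 had scaled values of 1199, 1040 and 1075 in KO libraries, against 593, 615 and 1076 in WT libraries (limma adjusted p = 0.244; without WT replicate 3, 0.0199, with KO higher), so KO below means the libraries labelled KO. A count over the whole gene tests the loss of 1 exon only in part. The 8 hepatocyte markers summed to between 2026781 and 2212212 in KO and between 1983259 and 3118604 in WT, and none was called. The 12 macrophage markers summed to between 11483 and 26075 in KO and between 8116 and 9704 in WT; all 12 were above 0 on the log2 scale and Csf1r was called. The 10 stellate and fibroblast markers summed to between 6501 and 8303 in KO and between 3490 and 4962 in WT, with Pdgfrb called. The 6 bile duct cell markers summed to between 1044 and 1935 in KO and between 562 and 706 in WT, with Spp1 called. The 9 endothelial markers summed to between 6707 and 7579 in KO and between 6263 and 6696 in WT, and none was called. Sums of platelet and of erythroid markers overlapped between the groups. No marker was at 0 in all libraries. The Y-linked Kdm5d lay between 271 and 288 in KO and between 231 and 257 in WT.

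The first question was how many of the 38 mRNAs differed between KO and WT livers. C4b rose 3.55-fold in KO, and C6 and Kng1 fell 2.04-fold and 2.18-fold. The other 35 members did not pass an adjusted p of 0.05 in limma over all genes. In that fit 2.71% of all tested genes were called, 1.35% higher and 1.36% lower in KO, and 3 of 38 members is not read as particular to them. Without WT replicate 3, where 9.91% of all genes were called (4.74% higher and 5.17% lower), 7 members passed: C4b, Masp2 and Fcna higher, and C6, Kng1, Cfb and Proc lower. On re-estimated reads edgeR called C4b, C6 and Kng1 alone among the members, where it called 2.81% of all genes with RLE and 2.87% with TMM scaling. DESeq2, which called 10.8% of all genes, added Masp2, C8a and C9, and limma with the replicate number as a block, which called 6.03%, added Masp2 and C9. An unadjusted p under 0.05 was reached by 10 of the 38, against 20% of all genes. In bulk liver, fewer cells of a type and less RNA per cell cannot be told apart.

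The KO and WT values did not overlap for 13 members, against 26% of all tested genes. KO was higher for C4b, Masp2, Fcna, C3 and F11, and lower for C2, C6, C8a, C9, Proz, Kng1, Serpinc1 and Serpinf2. With WT replicate 3 left out, 17 members were apart, against 45.7% of all genes. The median log2 fold change of the 38 members was -0.11, beside 0.00 for all tested genes; it was -0.02 without WT replicate 3 and 0.06 without KO replicate 1. The median size of the change, whatever its sign, was 0.37 for the members and 0.38 for all genes. The members together held 3.34% to 3.53% of each KO library's total and 3.08% to 3.49% of each WT library's total.

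The members differed widely in level per kb of exons, given here as mean scaled values. The length pools the exons of all transcripts of a gene, so ranks per kb depend on that choice. The fibrinogen alpha chain Fga was highest, at 28065 per kb in KO and 33406 in WT, and Fgg was next, at 20696 in KO and 21581 in WT. The lowest member in KO was Cfb, factor B of the alternative route, with 112 per kb against 228 in WT. Of the 50-base stretches of the Cfb transcript, 81.38% also occur in the read-through gene Gm20547, so the level of Cfb is uncertain. The lowest in WT was Pros1, the cofactor protein S, with 240.4 in KO against 180.04 in WT. From the top of the 38, C4b had rank 17 in KO and 31 in WT, while Kng1 had rank 12 in KO and 6 in WT.

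**Figure D1:**
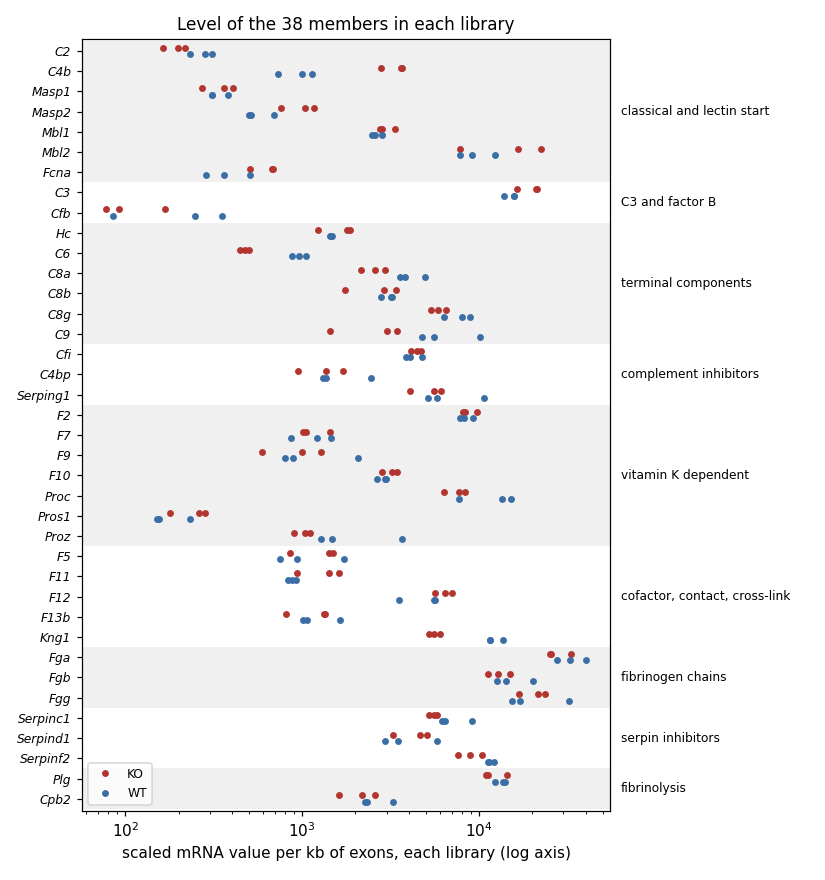
Scaled mRNA value per kb of exons on a log axis, 1 point per library, for the 38 members grouped by role; KO points lie above WT points in each row. Fga is highest and Cfb and Pros1 are lowest, and the 2 groups are fully apart for C4b, C6 and Kng1.

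**Figure D2:**
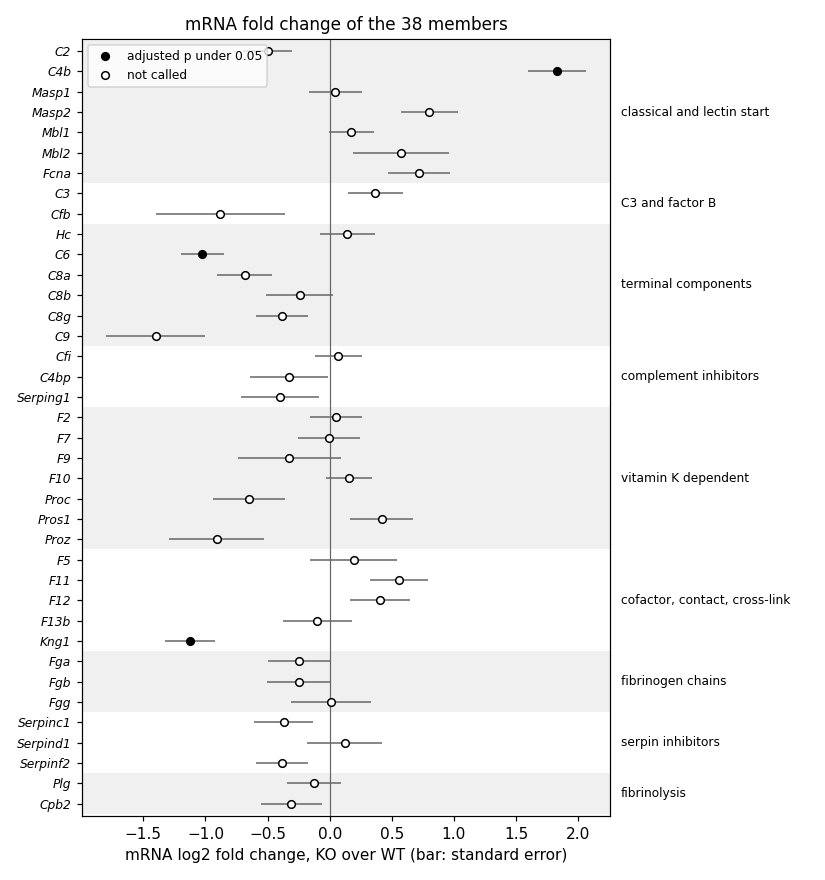
mRNA log2 fold change of KO over WT with its standard error for the 38 members grouped by role. Filled points mark C4b (1.83), C6 (-1.03) and Kng1 (-1.12), the members with a limma adjusted p under 0.05; open points did not pass.

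Among the 7 members that start the classical and lectin routes, 6 had a fold change above 0 and 1 was called. C4b, the C4 protein that the classical and lectin proteases cleave, had scaled values of 20941, 20587 and 15890 in KO, against 6470, 5667 and 4173 in WT. The lowest KO library lay far above the highest WT library. The means were 19139 ± 2819.6 in KO and 5437 ± 1166 in WT (SD, n = 3 each), and the log2 fold change was 1.83 (SE 0.24, limma adjusted p = 0.0113). The call was lost without KO replicate 1 (adjusted p = 0.0521), KO replicate 2 (0.078) or WT replicate 2 (0.0623), with log2 fold changes of 1.76, 1.77 and 1.87.

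C4b lies on chromosome 17 in the major histocompatibility region, next to its copy C4a, which encodes the sex-limited protein Slp. Of the 50-base stretches of the C4b transcript, 35.18% also occur in C4a, so the split of reads between the genes is uncertain. C4a had 9549, 7030 and 6090 in KO, against 4105, 4339 and 2880 in WT, groups that do not overlap (log2 fold change 1.00, limma adjusted p = 0.0749). It passed with DESeq2 (adjusted p = 0.00702), and in limma with no filter on low values (adjusted p = 0.0468) or with the replicate block (adjusted p = 0.0336). The ratio of C4b to C4a per kb was 2.39, 3.19 and 2.84 in KO and 1.72, 1.42 and 1.58 in WT. The ratio was higher in every KO library than in any WT library.

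Other genes of the same region were also examined. H2-Ea-ps, the class II alpha gene whose promoter is deleted in the C57BL/6 haplotype, had 1, 1 and 0 in KO, against 75, 171 and 400 in WT (limma adjusted p = 0.00684). Of 12 genes tested from a list for the region, it was the only 1 that limma called, beside 2.71% of all tested genes. Other class II genes had fitted folds of KO over WT above 1 without passing, at 3.90 for H2-Eb1 (limma adjusted p = 0.127), 3.82 for H2-Aa (0.153) and 3.06 for H2-Ab1 (0.175). C4 levels are known to differ between mouse histocompatibility haplotypes, including those of the parent strains. Cyp21a2-ps, 6.13 kb from C4b, had 53, 41 and 27 in KO and was at 0 in all 3 WT libraries (limma adjusted p = 0.0136). It was the only gene that limma with all libraries called of the 13 tested within 100 kb of C4b, beside 2.71% of all genes. No KO library could be left out without losing the call. Of the 13, 6 were higher and 1 was lower with no overlap, beside 13.2% and 12.8% of all tested genes. DESeq2, which called 10.8% of all genes, called 5 of the 13, all higher, C4a and Cyp21a2-ps among them. The part of the haplotype in the C4b difference was not tested.

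The pattern-recognition and protease members of the lectin route were mostly higher in KO without passing the test. Masp2, the protease that cleaves C4, had 2522, 3448 and 3849 in KO, against 1643, 1689 and 2275 in WT (log2 fold change 0.80, SE 0.23, limma adjusted p = 0.108). Ficolin A, encoded by Fcna and made largely by macrophages, had 925, 935 and 697 in KO, against 495, 392 and 693 in WT (0.72, SE 0.25, limma adjusted p = 0.162). For both genes the groups do not overlap, and WT replicate 3 is the highest WT library.

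Without WT replicate 3 both passed, with log2 fold changes of 0.95 for Masp2 (limma adjusted p = 0.0312) and 0.94 for Fcna (0.0292). Macrophage markers were higher in KO as given above, and their part in the Fcna value was not tested.

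Mbl2, the mannose-binding lectin C and the most abundant member of this role per kb, had 24251, 18120 and 8474 in KO, against 9927, 8459 and 13477 in WT. KO replicate 3 is among the WT values, so the groups overlap (0.57, SE 0.39, limma adjusted p = 0.462). Mbl1 had 5224, 4432 and 4319 in KO, against 3908, 4035 and 4409 in WT, and also overlapped (limma adjusted p = 0.648). Of the remaining members, Masp1 had a log2 fold change of 0.04 and C2, the C4 partner cleaved by the same proteases, had -0.50 with KO lower in every library (limma adjusted p = 0.214). Reads of C2 and Cfb can also fall on the read-through gene Gm20547, which is at 0 in all 6 libraries. It holds 57.99% of the 50-base stretches of C2 and 81.38% of those of Cfb, so both levels are uncertain.

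C3, the central component, had 108785, 108345 and 84619 in KO, against 80745, 80754 and 71226 in WT. All 3 KO libraries were above all WT libraries (log2 fold change 0.37, SE 0.22, limma adjusted p = 0.411). Cfb had -0.88 and overlapping groups, with WT replicate 3 at 239 beside 991 and 702 in the other WT libraries and 471, 258 and 219 in KO. Without WT replicate 3 Cfb passed, at -1.48 (limma adjusted p = 0.03).

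**Figure D3:**
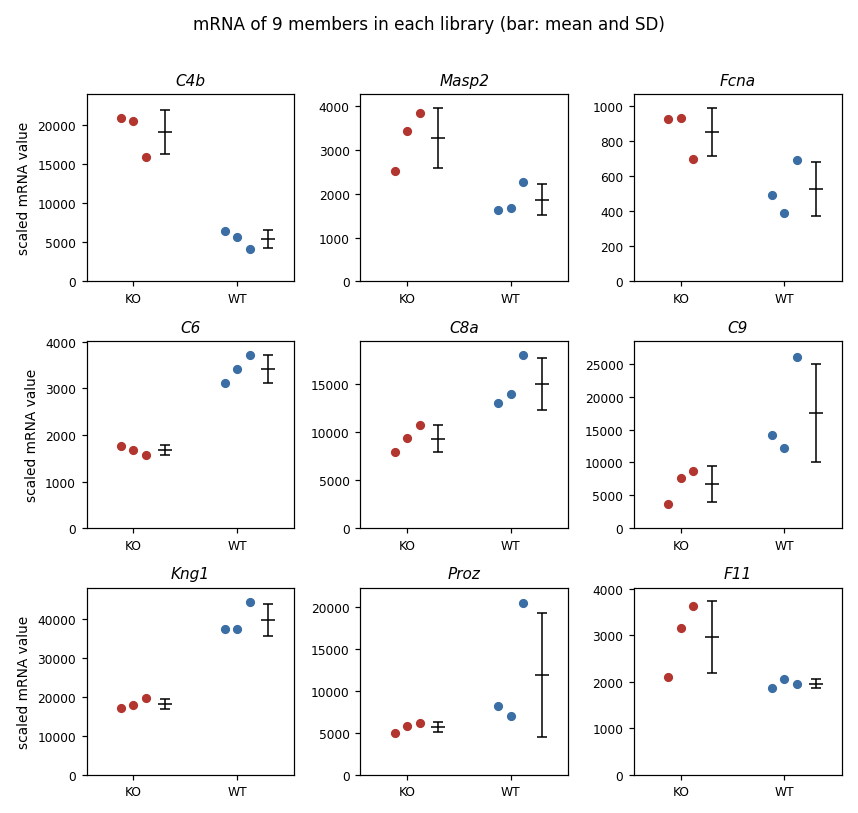
Scaled mRNA value in each library for 9 members, KO on the left and WT on the right of each panel, with the mean and SD of 3 libraries beside the points. C4b, Masp2, Fcna and F11 are higher in KO and the other 5 are lower, with no overlap in any panel; the highest WT point of C9 and Proz is WT replicate 3.

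Of the 6 members that form the membrane attack complex, 5 had a fold change below 0 and C6 was called. C6, which joins C5b to begin the pore, had 1773, 1682 and 1572 in KO, against 3117, 3408 and 3723 in WT. The means were 1676 ± 101 in KO and 3416 ± 303 in WT (SD, n = 3 each), and the log2 fold change was -1.03 (SE 0.17, limma adjusted p = 0.0269). The spread within each group was small and no KO value came near a WT value. The call was kept when WT replicate 3 was left out (limma adjusted p = 0.0158) and lost when any other library was (0.0729, 0.162 and 0.0751 without KO replicates 1, 2 and 3, and 0.0573 and 0.118 without WT replicates 1 and 2), while the log2 fold change stayed between -1.09 and -0.96.

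C8a and C9, which extend and close the pore, were lower in every KO library without passing. C8a had 7847, 9339 and 10691 in KO, against 12956, 13942 and 17990 in WT (-0.68, SE 0.22, limma adjusted p = 0.14). C9 had 3649, 7691 and 8744 in KO, against 14205, 12221 and 26019 in WT (-1.40, SE 0.40, limma adjusted p = 0.106). C9 had the lowest log2 fold change of the 38 members and also a wide spread, from WT replicate 3 on the high side and KO replicate 1 on the low side. Without WT replicate 3 it was -1.07 (limma adjusted p = 0.0909).

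The other subunits differed less. C8g, the small lipocalin-like subunit and the most abundant terminal member per kb, had 7959, 8740 and 9644 in KO, against 11997, 9446 and 13185 in WT (-0.39, SE 0.21, limma adjusted p = 0.354). Hc had 7648, 11718 and 11261 in KO, against 9145, 8935 and 9192 in WT (0.14, limma adjusted p = 0.778). C8b had a log2 fold change of -0.24. The ratio of C8a to C8g per kb was 0.405, 0.439 and 0.455 in KO and 0.443, 0.606 and 0.560 in WT, so KO replicate 3 lay above WT replicate 1.

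The promoters of the 3 terminal members with no overlap between the groups are shown because these mRNAs were lower together. Each line gives the 250 bases before the RefSeq transcript start on the gene's strand (build GRCm38.p6), with motif matches in capitals. C6 lies at chr15:4726960-4727209 on the plus strand, C8a at chr4:104876399-104876648 on the minus strand and C9 at chr15:6445096-6445345 on the plus strand.
C6: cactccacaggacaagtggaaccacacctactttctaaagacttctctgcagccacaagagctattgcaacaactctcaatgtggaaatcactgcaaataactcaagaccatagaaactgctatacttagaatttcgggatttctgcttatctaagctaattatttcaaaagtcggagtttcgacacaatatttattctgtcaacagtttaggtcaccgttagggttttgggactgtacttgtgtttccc
C8a: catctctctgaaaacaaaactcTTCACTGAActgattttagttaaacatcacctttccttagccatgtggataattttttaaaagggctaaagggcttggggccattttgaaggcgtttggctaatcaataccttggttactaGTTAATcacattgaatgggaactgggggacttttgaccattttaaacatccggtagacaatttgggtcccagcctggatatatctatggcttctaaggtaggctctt
C9: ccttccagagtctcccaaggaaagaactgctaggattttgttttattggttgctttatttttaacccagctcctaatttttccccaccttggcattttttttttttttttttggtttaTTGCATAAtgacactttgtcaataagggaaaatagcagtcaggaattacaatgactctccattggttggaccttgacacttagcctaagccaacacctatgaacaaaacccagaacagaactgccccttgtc

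Capitals mark matches on either strand to short motifs of liver factors. The 250 bases before C8a hold a partial HNF1 site (GTTAAT) that begins 107 bases before the start and a STAT motif (TTCNNNGAA) that begins 228 bases before it. The window of C9 holds a CEBP motif (TTGCNNAA) that begins 132 bases before the start. The window of C6 holds none of the motifs searched. Of the 38 members, 29 had an entry in the promoter table; C4b and Kng1 are among those that had none. The partial HNF1 site was in 27.6% of the 29 members, against 6.43% of the table's 32851 promoters, among them Fga, Fgb, Hc, C4bp, F13b, C8b and Proz. The CEBP motif was in 20.7%, against 9.56%, and the STAT motif in 20.7%, against 7.02%. The TATA box (TATAAA) was in 3.45%, against 12.4%. An HNF4 motif (CAAAGTCCA) was in 0 of the 29, against 0.384%. The NF-kB motif was searched first in a longer form, which was in 0 of the 29, against 1.21%. After that count was seen it was shortened by the last C to GGGANNTTC, which was in 2 of the 29 (Fgb and F11; 6.9%), against 3.23%, so these counts depend on the letters chosen. Matches overlap where their letters do, and a match describes the letters only.

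The 3 complement inhibitors did not differ beyond their spread. Serping1, the C1 inhibitor and the most abundant of them per kb, had 9463, 12896 and 14199 in KO, against 13417, 11908 and 24851 in WT (-0.40, SE 0.32, limma adjusted p = 0.536). C4bp, which binds C4b and helps to degrade it, had 6387, 11409 and 9191 in KO, against 9148, 8837 and 16404 in WT (-0.33, limma adjusted p = 0.625). In both genes the groups overlap, and WT replicate 3 is far above the other WT libraries. Cfi, the protease that cuts C3b and C4b, had a log2 fold change of 0.07.

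None of the 7 vitamin K dependent members was called in limma with all libraries, and 1 had an unadjusted p under 0.05. Protein C, an anticoagulant protease encoded by Proc and the most abundant of the 7 per kb in WT, had 19101, 15789 and 20639 in KO, against 37544, 33414 and 19151 in WT. WT replicate 3 lay within the KO values (log2 fold change -0.65, SE 0.29, limma adjusted p = 0.263). When it was left out Proc passed, at -0.95 (limma adjusted p = 0.0337).

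Protein Z, a cofactor for the inhibition of factor X that Proz encodes, went the other way with that library. Proz had 5002, 5761 and 6169 in KO, against 8200, 7041 and 20415 in WT, and all KO values were lower (-0.91, SE 0.38, limma adjusted p = 0.232). Leaving out WT replicate 3 gave -0.43 (limma adjusted p = 0.182).

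Factors VII, IX and X, the proteases that lead to thrombin, overlapped between the groups. F7 had 1867, 1962 and 2671 in KO, against 2718, 2263 and 1603 in WT. F9 had 1611, 2738 and 3469 in KO, against 2177, 2435 and 5672 in WT. F10 had 8802, 7697 and 9412 in KO, against 8079, 7993 and 7189 in WT. Their log2 fold changes were 0.00, -0.32 and 0.15, and the lowest limma adjusted p of these was 0.711. Prothrombin, encoded by F2 and the most abundant of the 7 per kb in KO, had 38240, 37440 and 44628 in KO, against 42404, 37976 and 35732 in WT, which overlap (log2 fold change 0.05). Pros1 had 0.42.

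Kng1 was the 1 called member among the 5 cofactor, contact and cross-linking genes. It encodes kininogen, the carrier of bradykinin and a cofactor of the contact system. Kng1 had 17035, 17961 and 19657 in KO, against 37334, 37458 and 44426 in WT. The means were 18218 ± 1329.7 in KO and 39739 ± 4059 in WT (SD, n = 3 each), and the log2 fold change was -1.12 (SE 0.20, limma adjusted p = 0.031). Every KO library lay far below every WT library. The call was kept without WT replicate 3 (limma adjusted p = 0.021) and lost without any other library (0.0973, 0.173 and 0.0595 without KO replicates 1, 2 and 3, and 0.0714 and 0.125 without WT replicates 1 and 2), at log2 fold changes between -1.18 and -1.04.

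Kng1 lies on chromosome 16 beside its copy Kng2, and 17.95% of the 50-base stretches of its transcript also occur there. Kng2 had 3768, 4299 and 4112 in KO, against 7208, 6092 and 5354 in WT, and every KO value was lower (-0.61, SE 0.19, limma adjusted p = 0.134). Kng2 passed with DESeq2 (adjusted p = 0.0313) and in limma without WT replicate 3 (adjusted p = 0.0462). Of the 6 genes tested within 100 kb of Kng1, limma with all libraries called none. Kng2 and Eif4a2, 2 of the 6, were lower with no overlap, beside 12.8% of all tested genes. DESeq2, which called 10.8% of all genes, called both. Hrg, the histidine-rich glycoprotein 96.2 kb away, had -0.24 and overlapping groups.

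F11, the contact-system protease factor XI, was higher in every KO library. It had 2104, 3158 and 3625 in KO, against 1871, 2052 and 1963 in WT (0.56, SE 0.23, limma adjusted p = 0.228). KO replicate 1 was barely above the WT values. F12, F5 and F13b had log2 fold changes of 0.40, 0.19 and -0.10, with overlapping groups.

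The fibrinogen chains did not differ beyond their spread. Fga had 100079, 76081 and 77270 in KO, against 121294, 97830 and 82532 in WT (-0.25, SE 0.25, limma adjusted p = 0.644). Fgg had 35406, 45364 and 49181 in KO, against 31959, 35695 and 67853 in WT (0.01, SE 0.32, limma adjusted p = 0.993). Fgb was at -0.25. The 3 chains are joined in equal number in the protein, yet the ratio of Fga to Fgg per kb was 1.97, 1.17 and 1.09 in KO and 2.64, 1.91 and 0.846 in WT, a spread within WT that is wider than the difference between the groups.

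Both serpins with separate groups were lower in KO without passing the test. Serpinf2, the plasmin inhibitor alpha 2-antiplasmin and the most abundant serpin member per kb, had 20585, 17680 and 24052 in KO, against 26314, 26261 and 28079 in WT (-0.38, SE 0.21, limma adjusted p = 0.354). Antithrombin, encoded by Serpinc1, had 47759, 44429 and 49354 in KO, against 54958, 52482 and 78400 in WT (-0.37, SE 0.24, limma adjusted p = 0.436). Its rank per kb below Serpinf2 depends on the length used, 8.546 kb of pooled exons, while its longest transcript has 4970 bases. Serpind1, heparin cofactor II, had 7144, 10091 and 11160 in KO, against 6457, 7631 and 12738 in WT, which overlap (0.12, limma adjusted p = 0.875). Plasminogen, encoded by Plg, had 40758, 41791 and 53518 in KO, against 45603, 50370 and 51875 in WT (-0.13, limma adjusted p = 0.798). Cpb2, which slows fibrinolysis, had -0.31 and overlapping groups.

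WT replicate 3 was the highest or lowest of the 6 libraries for 25 of the 38 members, the highest for 18 and the lowest for 7. KO replicate 1 was outside the other 5 libraries for 20 members. The median coefficient of variation of a member was 15.9% in KO and 21.6% in WT, against 20.7% in KO and 27.6% in WT for all tested genes.

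The next comparison placed the members beside 51 other genes of the same pathways. Of these, 49 were tested, with a median log2 fold change of 0.42. Limma called 2 higher in KO (C1ra and Cfp) and none lower, beside 1.35% and 1.36% of all tested genes. Without WT replicate 3, where 9.91% of all genes were called, the counts were 8 higher and 1 lower. Without KO replicate 1 or WT replicate 1 C1ra alone was called, without WT replicate 2 it was C1s1 and C1s2, and without KO replicate 2 none. DESeq2, which called 10.8% of all genes, called 9 higher, Adamts13 and C4a among them, and 1 lower, Kng2. C1ra, a C1r protease that starts the classical route, had 4795, 6792 and 7128 in KO, against 1727, 1891 and 1921 in WT (1.74, SE 0.21, limma adjusted p = 0.01). Properdin, encoded by Cfp, had 780, 932 and 496 in KO, against 328, 299 and 290 in WT (1.22, SE 0.25, limma adjusted p = 0.049).

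For both genes every KO library was above every WT library. The C1ra call was lost without KO replicate 2 (limma adjusted p = 0.0659) or WT replicate 2 (0.0568). The Cfp call was kept only without KO replicate 3 (0.028) or WT replicate 3 (0.0313). Of the 50-base stretches of C1ra, 48.02% also occur in its copy C1rb, so its level is uncertain.

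All 7 tested classical-route genes, C4a included, had a fold change above 0, and 5 had no overlap, beside 26% of all tested genes. C1s1, the partner protease of C1r, was named after its values were seen. It had 4226, 7404 and 8308 in KO, against 12, 1816 and 11 in WT (limma adjusted p = 0.0797). Its copy C1s2 had 1778, 1857 and 2270 in KO, against 32, 1311 and 55 in WT (limma adjusted p = 0.122). WT replicates 1 and 3 were near 0 for both genes while WT replicate 2 was not, and C1ra showed no such split. The C1s1 transcript shares 24.27% of its 50-base stretches with C1s2.

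The C1q chain C1qc had 1810, 2050 and 907 in KO, against 574, 570 and 536 in WT (1.42, SE 0.30, limma adjusted p = 0.0509). It passed in both edgeR fits and DESeq2, and in limma with the replicate block, both other filters or a pseudocount of 10. With TMM scaling of the scaled values or a pseudocount of 0.5 it did not pass in limma. C1qc also passed without KO replicate 3 or WT replicate 3, but not without any other library. C1qa, C1qb and C1qc are also among the 12 macrophage markers, which summed higher in every KO library than in any WT library. The part of macrophage number in the C1q and properdin values was not tested.

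Limma with all libraries called none of 10 complement receptors and membrane regulators or 16 other clotting factors and cofactors. It also called none of 4 genes of fibrinolysis and 3 of the vitamin K cycle and factor secretion. In that order, 3, 6, 1 and 0 of them had an unadjusted limma p under 0.05, beside 20% of all tested genes. Adamts13, the protease that trims von Willebrand factor, had 425, 302 and 221 in KO, against 138, 137 and 89 in WT (1.35, limma adjusted p = 0.06). Adamts13 was named after its values were seen.

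**Figure D4:**
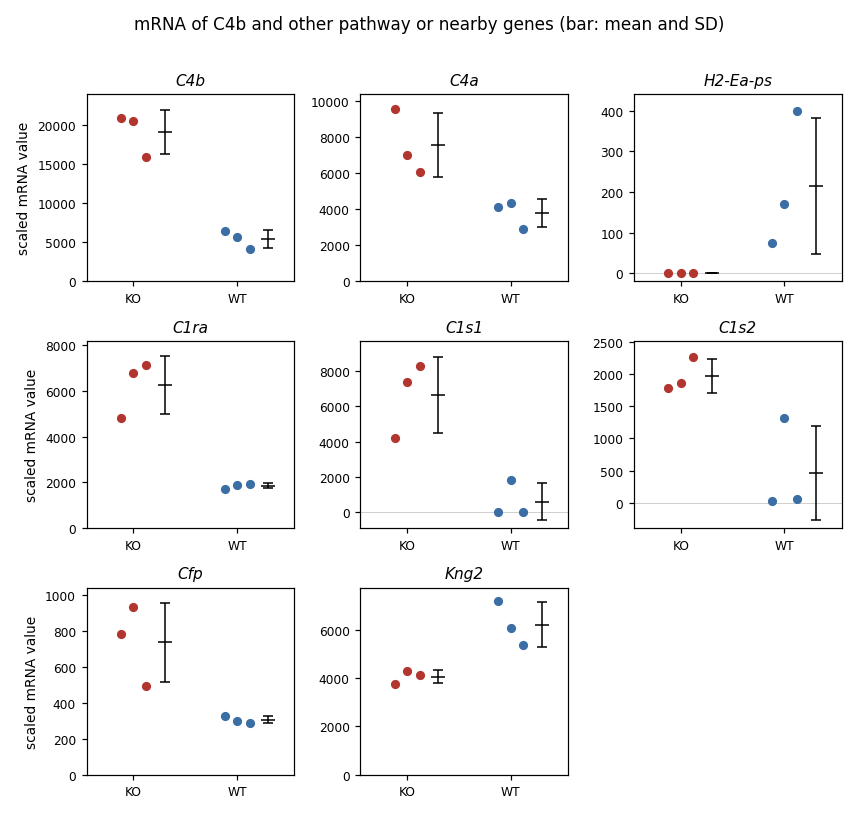
Scaled mRNA value in each library for C4b and for other genes of the pathways or of its region, KO on the left and WT on the right of each panel, with the mean and SD of 3 libraries beside the points. C4a, C1ra and Cfp are higher in every KO library, H2-Ea-ps is near 0 in KO, and C1s1 and C1s2 are near 0 in WT replicates 1 and 3 only.

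Nascent RNA asked whether the newly made transcripts of the members differed in the same way. With 1 KO and 1 WT library per method there is no replicate check and no test, and the 95% intervals given are exact counting intervals that cover counting error only. The median log2 ratio of KO to WT, centred on the median of 13244 genes, was -0.35 in EU and -0.31 in Br for the 38 members. The ratio was below 0 for 24 of 38 members in EU and 26 of 38 in Br. Medians in EU and Br were also below 0 for the 8 hepatocyte markers (-0.24 and -0.16) and for 17 acute-phase genes (-0.77 and -0.29). For the other pathway genes they were 0.07 and 0.07. That list was not cut at a mean RPKM of at least 1. Its EU median is the value that centring gives to genes with 0 reads in both EU libraries, such as Cfd and Plat. The EU median of that list is therefore not read as a difference. The lean of the members below 0 is not read as particular to them. In EU 4 members were at least 2-fold lower and 1 at least 2-fold higher, against 18.9% and 19% of all genes. In Br 2 members were at least 2-fold lower and 1 higher, against 7.3% and 7.69%.

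Both intervals lay below 0 for 17 members and above 0 for 3, against 11.5% and 10.4% of the 10425 genes with at least 20 reads in each method. The members are deeply read, with a median of 3782.5 EU and 743.5 Br reads over both libraries, against 255 and 147 for the 13244 genes. Their intervals are narrower than those of most genes, so their share is not set against these percentages.

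C4b, which rose in mRNA, was lower in KO in both nascent methods. It had 3324 EU reads in KO and 14019 in WT, a log2 ratio of -1.04 (interval -1.10 to -0.99), and 1061 Br reads in KO and 2081 in WT, a log2 ratio of -0.52 (-0.63 to -0.42). C4a had log2 ratios of -3.65 in EU and -1.04 in Br. Cfp, a called pathway gene with higher mRNA in KO, had -1.25 in EU (-2.53 to -0.62), from 12 reads in KO and 70 in WT. In Br Cfp had -0.77 (-1.53 to -0.13). C1ra, the other called pathway gene, had 1.03 in EU (0.87 to 1.24) and 0.23 in Br (-0.07 to 0.52). H2-Ea-ps had 22 EU reads in KO and 2 in WT, and 1 Br read in KO and 4 in WT. The EU libraries thus differed for H2-Ea-ps in the opposite direction to the mRNA libraries.

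C6, C8a and C9 were lower in both methods as well as in mRNA. C6 had log2 ratios of -0.40 in EU (-0.50 to -0.31) and -0.91 in Br (-1.22 to -0.62). C9 had -2.41 in EU (-2.56 to -2.30), from 524 reads in KO and 5777 in WT, and -1.28 in Br (-1.62 to -0.99), from 111 reads in KO and 373 in WT. C8a had -0.20 in EU and -0.41 in Br. C9 had the lowest EU ratio of the 38 members.

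The other terminal member below 0 in both methods was Hc, with -0.90 in EU and -0.25 in Br. C3, with an mRNA fold change above 0, had -0.37 in EU and -0.45 in Br. C4bp had -1.61 in EU and -0.37 in Br.

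Kng1, which fell in mRNA, went opposite ways in the nascent methods. It had 0.34 in EU (0.28 to 0.40), from 4099 reads in KO and 6613 in WT, and -1.0 in Br (-1.20 to -0.84), from 342 reads in KO and 942 in WT. Cfi disagreed most between the methods, with 3.14 in EU, from 4617 reads in KO and 1068 in WT, and -0.36 in Br. Masp1, Serping1, F2, Fga and Fgb had intervals on opposite sides of 0, as Kng1 did. The Br interval of Cfi (-0.739 to 0.004) included 0.

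Members of coagulation and fibrinolysis gave 10 of the 17 that were lower in both methods. Among the vitamin K dependent members these were F7 (-0.70 in EU and -0.61 in Br), F9 (-0.54 and -1.42), F10 (-0.33 and -0.51), Proc (-0.15 and -0.62) and Proz (-0.69 and -0.36). The mRNA of F7 had a log2 fold change of 0.00 and that of F10 one of 0.15. The 3 serpins, Fgg and Plg made up the rest: Serpinc1 had -0.15 and -0.19, Serpind1 -0.74 and -0.31, Serpinf2 -0.72 and -0.31, Fgg -0.73 and -0.33, and Plg -0.95 and -0.17.

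Higher in both methods were Mbl1 (0.56 in EU and 0.39 in Br), Mbl2 (0.93 and 1.44) and F11 (0.59 and 0.60). All 3 also had an mRNA fold change above 0, none of them called. Of the 38 members, 25 had the sign of the mRNA fold change in EU, 21 had it in Br, and 16 had it in both.

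**Figure D5:**
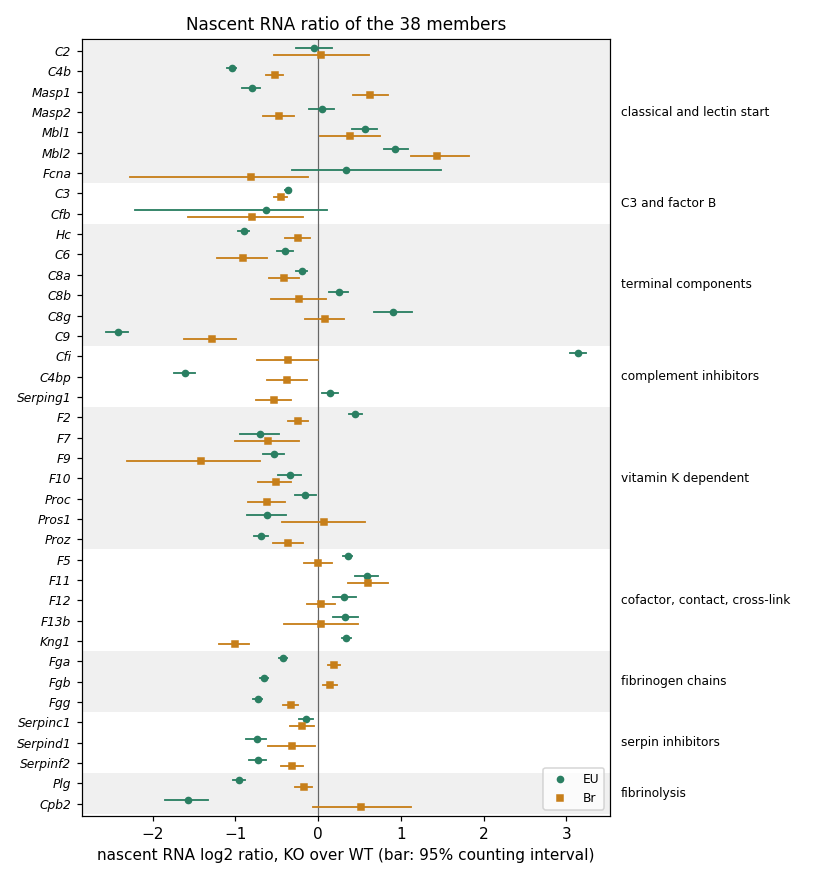
Nascent RNA log2 ratio of KO over WT for the 38 members grouped by role, with EU as circles and Br as squares and 95% counting intervals as bars, from 1 library per group and method. C9 and C4b lie left of 0 in both methods, Mbl2 and F11 lie right of 0 in both, and Cfi and Kng1 differ in sign between the methods.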

How the data were processed

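The analysis used 3 KO and 3 WT mRNA libraries and, for EU and for Br, 1 KO and 1 WT library of nascent RNA. The 24 ChIP and input samples were not used here. Per the submitters' processing notes, the tools included TopHat2, Bowtie2, Cufflinks, DESeq, SICER and MACS2, with build mm9. Which counter and annotation were used is not given in the sources used here. Values in the mRNA files are a score that the authors deposited: reads scaled between libraries by DESeq, per the file headers, and rounded to whole numbers. The nascent files hold deposited counts per gene, and 2 counts were taken as 1 read in Br, where every value is even. The authors also deposited RPKM for the 4 nascent libraries.

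Counts were planned for and scaled values were found, so robust limma-trend (limma 3.58.1 under R 4.3.3) was run on log2 of the scaled value plus 1. Genes entered when 3 or more libraries had a value of 10 or more. The fit used Benjamini-Hochberg adjustment over all tested genes, a two-sided threshold of 0.05 and no covariates. Fold changes are on the log2(value + 1) scale. Reads re-estimated from the rounding steps, between 15640582 and 27108677 per library, served edgeR 4.0.16 and DESeq2 1.42.0 as alternatives. Other alternatives were TMM scaling, other filters and pseudocounts, the replicate number as a block and each library left out.

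Nascent ratios were log2 of KO to WT RPKM plus 0.5, centred on the median gene with a mean RPKM of at least 1 (-0.07 in EU and 0 in Br before centring), with Clopper-Pearson intervals at 95% from reads without the added 0.5. The libraries held 5583983 (EU KO), 10833287 (EU WT), 2317840 (Br KO) and 3156055 (Br WT) reads. Reads without molecular identifiers are not independent molecules. Also tried were 0.1 or 2 added to the RPKM, a floor of 5 on the mean, no centring, and CPM.

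Values are given in every library for called members, members without overlap and a log2 fold change of at least 0.5 either way, the most abundant member per kb in WT in each role, members with both nascent intervals off 0, called pathway genes, and the copies C4a and Kng2. The other members are given by their fold change. Gene names, exon lengths per kb and gene order came from GENCODE vM21 (GRCm38), a later build than mm9, and shared 50-base stretches from its transcripts. Promoters came from RefSeq. Some pathway genes are not reported here and were left out of the list of other pathway genes and its counts. The fit was tested on simulated data. The rule for the members uses names and functions and no measured value, but it, the lists and the tests were chosen with earlier results of these data known.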

Additional observations from a re-analysis of the deposited data

How the results depend on the processing

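Counts of calls depended on the test and on single libraries. Genes called over the whole table numbered 455 (227 higher, 228 lower) in limma, 1781 (869 higher, 912 lower) in DESeq2 and between 28 and 1666 with 1 library left out. Members called higher numbered 1 in limma, 2 in DESeq2 (C4b and Masp2) and 0 to 3 with 1 library left out. Members called lower numbered 2 in limma, 4 in DESeq2 (C6, C8a, C9 and Kng1) and 0 to 4 with 1 library left out. Over all genes the lowest count came without KO replicate 2 and the highest without WT replicate 3, and the cause was not tested. Both edgeR fits, TMM scaling, the other filters and the other pseudocounts called C4b, C6 and Kng1 and no other member. The median log2 fold change of the members lay between -0.201 and 0.0617 with 1 library left out, and 14 to 19 members were then without overlap, beside 29.3% to 45.7% of all tested genes.

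Deviations of same-numbered KO and WT libraries from their group means had correlations of 0.409, -0.242 and 0.198. With 3 libraries in each group these values cannot show whether the numbers are a pairing. With the replicate block 1014 genes were called (500 higher, 514 lower), 2 members higher (C4b and Masp2) and 3 lower (C6, C9 and Kng1). The nascent medians stayed between -0.43 and -0.30 in EU and between -0.32 and -0.27 in Br over the settings tried.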

Other observations

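Known regulators of these genes in hepatocytes were measured in the same libraries. Besides transcription factors, the list held the receptor chains Il6ra and Il6st and the signalling inhibitor Socs3. Of its 10 genes none was called in limma, and 1 of them had an unadjusted limma p under 0.05, beside 20% of all tested genes. Hnf4a, the nuclear receptor HNF4 alpha, had 11342, 13356 and 16102 in KO, against 10196, 11238 and 19905 in WT (log2 fold change 0.03, limma adjusted p = 0.968). Its nascent log2 ratios were -1.24 in EU (interval -1.29 to -1.20) and -0.41 in Br (-0.51 to -0.32). Of 17 acute-phase genes, Lcn2 and Lbp were called higher in KO and 15 were not called, beside 1.35% of all tested genes called higher. Lcn2, lipocalin 2, had 1572, 845 and 405 in KO, against 103, 80 and 44 in WT (limma adjusted p = 0.0168). Lbp, which binds bacterial lipopolysaccharide, had 2535, 2010 and 2883 in KO, against 1364, 1027 and 1036 in WT (limma adjusted p = 0.0381). The nascent log2 ratios of Lbp were -1.04 in EU and -0.29 in Br, with both intervals below 0. Those of Lcn2 were -2.83 in EU and 0.97 in Br, the latter from 7 reads in KO and 3 in WT.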
